A study of Mus musculus with 6 samples.

Results

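The genes described here are 9 mouse genes of double-stranded RNA sensing and of the interferon response: Rigi, Ifih1, Dhx58, Mavs, Eif2ak2, Adar, Irf7, Isg15 and Ifi27. They were taken by symbol, and all 9 were found among the 53947 genes in each table. Total RNA with ribosomal RNA removed was sequenced from the quadriceps of mice aged 12 weeks, in 3 HSALR and 3 WT libraries. HSALR mice are transgenic for a human skeletal actin gene with about 220 CTG repeats, and are used as a model of myotonic dystrophy type 1. WT mice are labelled only as wild type. The transgene is an actin gene of skeletal muscle, so the repeat RNA is made in muscle fibres, whereas the RNA sequenced here came from the whole muscle. The labels used here give neither strain nor litter, so a difference in genetic background cannot be told apart from an effect of the repeats. They also do not say whether each library came from a separate animal, so the p-values measure the spread between these libraries.

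Cells recognise double-stranded RNA in the cytoplasm mainly through RIG-I (encoded by Rigi) and MDA5 (encoded by Ifih1), helicases that pass the signal to the mitochondrial adaptor MAVS. This leads to the production of type I interferon, which acts through its receptor on a set of interferon-stimulated genes, many of which encode the sensors themselves. Independently of this route, the kinase PKR (encoded by Eif2ak2) binds double-stranded RNA and blocks translation, and the deaminase ADAR1 (encoded by Adar) edits adenosines in it and so limits sensing of the cell's own RNA. RNA of expanded CUG repeats folds into long hairpins, and the comparison of HSALR with WT therefore asks whether these genes differ in abundance in muscle that makes such RNA.

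Interferon acts on many of its target genes through the interferon-stimulated response element, here searched as 2 GAAA half-sites with 2 bases of any kind between them, on either strand. The window ran from 250 bases before to 50 bases after the start of the canonical transcript (GRCm39, GENCODE M39). Of the 9 promoters, 6 held a match, against 3.86% of 21603 promoters of protein coding genes. The matches are shown because they set the genes with a match in this window beside those without one. The match with its half-sites is in capitals, up to 15 flanking bases on each side are in lower case, and each sequence reads 5′ to 3′ on the strand of its gene.
Rigi (chr4:40239799-40239838, minus strand): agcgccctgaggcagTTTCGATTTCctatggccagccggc
Ifih1 (chr2:62476558-62476582, minus strand): ctggagaagagaatcGAAACAGAAA
Dhx58 (chr11:100595077-100595116, minus strand): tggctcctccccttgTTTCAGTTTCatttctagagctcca
Eif2ak2 (chr17:79189963-79189998, minus strand): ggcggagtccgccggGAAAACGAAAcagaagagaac
Isg15 (chr4:156285317-156285368, minus strand): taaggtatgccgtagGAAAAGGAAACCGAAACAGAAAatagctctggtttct
Ifi27 (chr12:103400377-103400416, plus strand): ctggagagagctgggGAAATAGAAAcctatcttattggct

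The matches of Rigi and Dhx58 lie on the strand opposite to their genes, and that of Isg15 is a run in which overlapping matches share half-sites. In Rigi, Ifih1 and Eif2ak2 the match begins 12, 41 and 30 bases into the transcript, counted from 1 at its start, and in the other genes it begins before the start. No match lay in the windows of Mavs, Adar and Irf7. Only the window of the canonical start was searched, so a gene without a match there can still hold one elsewhere. The canonical start of Adar, at 89638043, lies inside the gene (89622329 to 89660753). That of Ifi27, at 103400417, likewise lies inside its gene (103392254 to 103407799). It also lies within Ifi27l2a (103399975 to 103409950), a gene on the opposite strand. A match is only a run of letters, and no factor binding was measured.

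The libraries held 11468959 to 13220792 counts in HSALR and 14048603 to 15023710 counts in WT. Levels are given in CPM, for which counts were divided by library sizes adjusted by the TMM method. On this scale 3 counts correspond to 0.201 to 0.285 CPM in HSALR and 0.199 to 0.223 CPM in WT. The non-coding 7SL and 7SK RNAs took 18.8% to 43.9% of the counts in HSALR and 14.1% to 15.5% in WT, and HSALR replicate 1 stood apart at the upper end. Every HSALR library lay above every WT library in this share. A fit with the share as a covariate, as used below, therefore cannot separate it from group, and smaller changes in it are hard to read. Fibre markers, 9 of 9 above 0 in every library, summed to 49580, 83874 and 68266 CPM in HSALR and 92562 to 102770 CPM in WT, with HSALR replicate 1 again at the low end. TPM (abundance corrected for transcript length) shifted the genes as a whole: the median HSALR over WT difference of all tested genes was -0.46 on log2(TPM + 0.1) and -0.28 on log2(TPM + 1), beside 0.04 for the counts. Differences on TPM are therefore also given relative to that median.

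None of the 9 genes was called as different between HSALR and WT. Of the 9, 7 had enough counts to be tested, and at a Benjamini-Hochberg adjusted p below 0.05 in edgeR's quasi-likelihood test 0 were called higher and 0 lower. Over all 13576 genes tested, 4.28% were called higher and 7.48% lower, which is 11.8% in all. At an unadjusted p below 0.05 the count was 4 of 7, against 31.9% of all genes. DESeq2 and the other 19 settings tried also called none of the genes they tested. Dhx58 and Isg15 were tested only in the fit without a filter. The log2 fold change (HSALR over WT) was positive for 6 of the 7 with a median of 0.63, beside 52.9% positive and a median of 0.04 over all genes tested. The median of the 7 was 0.37 without WT replicate 1, and 0.32 with 4 of 7 positive when the share of 7SL and 7SK RNA was a covariate. On log2(TPM + 0.1) it lay 0.42 above the median of all genes, beside 0.59 for the counts. Mavs and Ifi27 had 245 or more counts in every library, and the other genes had at most 101.37.

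**Figure D1:**
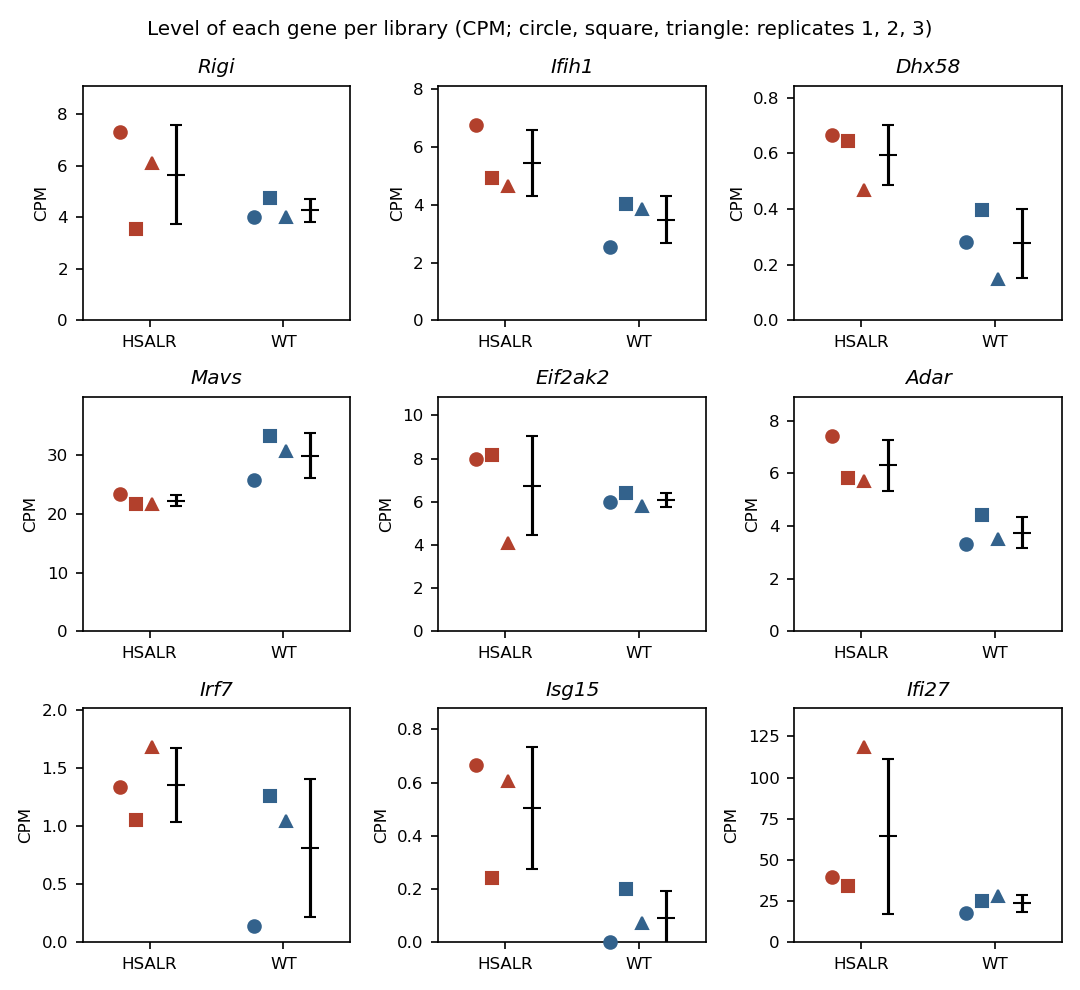
Levels of the 9 genes in each library (vertical axes in CPM from 0; HSALR in red, WT in blue; circle, square and triangle for replicates 1, 2 and 3; the bar is the mean with its SD, n = 3). Adar and Ifih1 lie above WT in all HSALR libraries and Mavs below, and a single HSALR library lifts the mean of Ifi27.

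Among the sensors, Rigi (chromosome 4, 40203772 to 40239852, GRCm39) overlapped between groups. It was at 7.32, 3.55 and 6.11 CPM in HSALR, against 4.03, 4.77 and 4.02 CPM in WT. HSALR replicates 1 and 3 lay above every WT library, and replicate 2 lay below every one. The log2 fold change was 0.40 ± 0.29 (SE), with a 95% interval of -0.24 to 1.05 (edgeR adjusted p = 0.359). It was 0.20 without HSALR replicate 1, 0.64 without HSALR replicate 2 (edgeR adjusted p = 0.0775), 0.12 with an offset for effective length and -0.076 with the share of 7SL and 7SK RNA as a covariate. On log2(TPM + 0.1) Rigi differed by -0.43, which is 0.029 above the median of all genes on that scale.

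Ifih1 (chromosome 2, 62425714 to 62476607) encodes MDA5, which binds long duplexes. It was at 6.75, 4.92 and 4.63 CPM in HSALR, against 2.55, 4.04 and 3.87 CPM in WT, so that every HSALR value lay above every WT value. Its log2 fold change of 0.63 ± 0.27 (95% interval 0.02 to 1.25) had an unadjusted p of 0.0454, and the edgeR adjusted p was 0.148. Groups without overlap and with HSALR higher were found for 17.8% of all tested genes. On TPM, Ifih1 was at 0.597 ± 0.0586 TPM in HSALR and 0.867 ± 0.287 TPM in WT (SD, n = 3 each), and its log2 difference with 0.1 added was -0.43 (two-sided exact permutation p = 0.3). This lies 0.029 above the median of all genes on that scale, beside 0.59 for the counts. Without WT replicate 1, the lowest library, the log2 fold change of the counts was 0.46 (edgeR adjusted p = 0.391).

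Dhx58 (chromosome 11, 100585710 to 100595097) encodes LGP2, a relative of both sensors that modulates their signalling. It had 7, 8 and 7 counts in HSALR, against 4, 6 and 2 counts in WT. The HSALR counts lay above the WT counts by 1 to 6, at a depth where single reads decide the order. It passed no filter in the main test, and the fit with no filter put its change at 1.05 ± 0.87 on the log2 scale (edgeR adjusted p = 0.523). A difference was not detectable at this depth. The antisense transcript Dhx58os overlaps it, with 4, 2 and 9 counts in HSALR and 3, 0 and 0 in WT. The library kit keeps strand, but no source used here gives the strand setting of the counting.

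The adaptor gene Mavs (chromosome 2, 131075442 to 131096740) was the only one of the 7 with a negative change in the edgeR fit. It was at 23.3, 21.7 and 21.6 CPM in HSALR, against 25.7, 33.2 and 30.7 CPM in WT. All HSALR libraries lay below all WT libraries, an order found for 20% of the tested genes. The log2 fold change was -0.43 ± 0.14 (95% interval -0.74 to -0.12), the unadjusted p was 0.0118 and the edgeR adjusted p was 0.0705. Over 20 other settings it ranged from -0.95, on log2(TPM + 0.1), to -0.35, without WT replicate 2, and the adjusted p from 0.0564 to 0.234. In TPM, Mavs was at 3.39 ± 1.08 in HSALR and 6.46 ± 0.974 in WT (SD, n = 3 each; two-sided exact permutation p = 0.1, the smallest that 3 against 3 libraries allow). Relative to the median of all genes, Mavs was at -0.49 on log2(TPM + 0.1) and at -0.47 in the counts.

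The effector gene Eif2ak2 (chromosome 17, 79159972 to 79190012), which encodes PKR, was at 7.99, 8.15 and 4.10 CPM in HSALR, against 6.01, 6.42 and 5.80 CPM in WT. The WT libraries lay close together, with HSALR replicates 1 and 2 above them and replicate 3 below. On the log2 scale HSALR differed by 0.14 ± 0.27 (95% interval -0.47 to 0.76; edgeR adjusted p = 0.751). Without HSALR replicate 2 it was -0.033, without HSALR replicate 1 it was 0.0065, without HSALR replicate 3 it was 0.40, and with an offset for effective length it was 0.52. On log2(TPM + 0.1) Eif2ak2 differed by -0.043, which is 0.42 above the median of all genes on that scale. Its expected counts were not whole in HSALR replicate 2 (101.37) and in WT replicates 2 and 3 (96.93 and 77.70), so a few reads there were divided with another gene.

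Adar (chromosome 3, 89622329 to 89660753) had the lowest p of the 9 genes. It was at 7.42, 5.81 and 5.71 CPM in HSALR, against 3.32, 4.44 and 3.49 CPM in WT. The groups did not overlap. The log2 fold change was 0.74 ± 0.23 (95% interval 0.22 to 1.26), the unadjusted p was 0.0102 and the edgeR adjusted p was 0.0659. It stayed positive over 20 other settings, from 0.25 with log2(TPM + 1) to 1.09 with an offset for effective length, and the adjusted p ranged from 0.0543 to 0.48. In TPM the groups overlapped, at 0.947 ± 0.447 in HSALR and 0.613 ± 0.199 in WT (SD, n = 3 each; two-sided exact permutation p = 0.3). On log2(TPM + 0.1) Adar differed by 0.49, which is 0.95 above the median of all genes on that scale, beside 0.70 for the counts. The window of its canonical transcript held no match to the response element shown above.

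**Figure D2:**
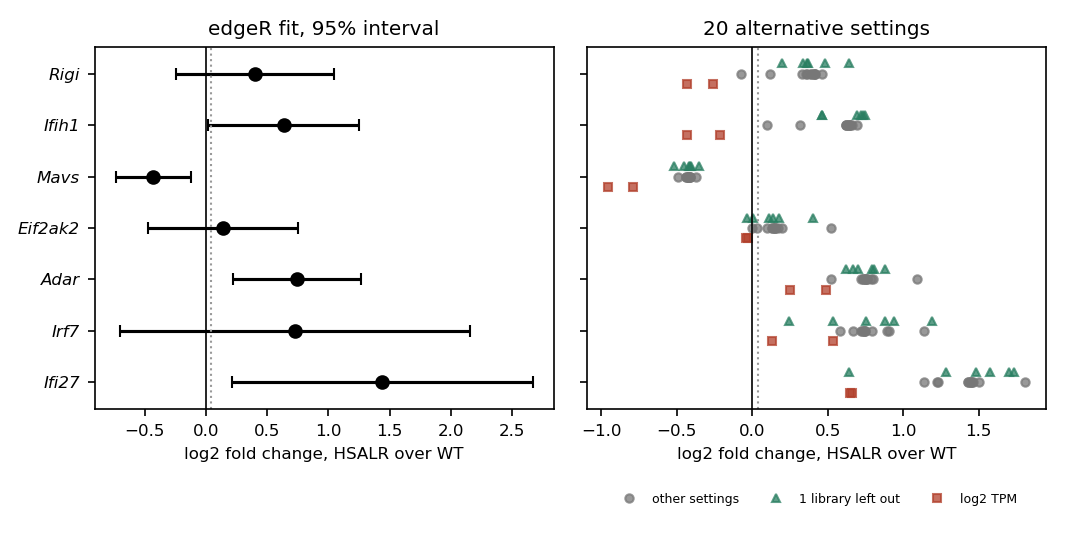
Log2 fold changes (HSALR over WT) of the 7 tested genes. Left: the edgeR estimate with its 95% interval; right: the same under 20 alternative settings, with TPM in red squares and 1 library left out in green triangles. The dotted line is the median of all tested genes in the edgeR fit (0.04), which was -0.46 on log2(TPM + 0.1) and -0.28 on log2(TPM + 1). On TPM, Rigi and Ifih1 lie near the median of that scale.

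Among the interferon-stimulated genes, Irf7 (chromosome 7, 140842619 to 140846398), the transcription factor that amplifies interferon production, was at 1.33, 1.05 and 1.68 CPM in HSALR, against 0.141, 1.26 and 1.04 CPM in WT. The groups overlapped, and WT replicate 1 was low with 2 counts. Its change was 0.73 ± 0.63 on the log2 scale (95% interval -0.70 to 2.16; edgeR adjusted p = 0.452). It was 0.24 without WT replicate 1 and 1.19 without WT replicate 2. On log2(TPM + 0.1) Irf7 differed by 0.53, which is 0.997 above the median of all genes on that scale, beside 0.69 for the counts. Phrf1 overlaps Irf7 on the opposite strand, with 165, 158 and 247 counts in HSALR and 178, 228 and 232.01 in WT, against 14, 13 and 25 counts in HSALR and 2, 19 and 14 in WT for Irf7, so with the strand setting unknown its reads could stand under Irf7.

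Isg15 (chromosome 4, 156283883 to 156285303) encodes a ubiquitin-like protein that is attached to other proteins after interferon treatment, and its promoter held the longest run of half-sites. It had 7, 3 and 9 counts in HSALR, against 0, 3 and 1 counts in WT. Thus the order of its libraries rested on a few reads, and 1 HSALR library and 1 WT library had the same count. In TPM it was at 0.32, 0.24 and 0.55 in HSALR, against 0.00, 0.23 and 0.08 in WT, which do not overlap (two-sided exact permutation p = 0.1, the smallest possible). It passed no filter in the main test, and with no filter the log2 fold change was 2.32 ± 1.15 (unadjusted p = 0.0515, edgeR adjusted p = 0.243). The TPM of WT replicate 1 is listed at 0, where 3 counts would be 0.212 CPM.

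Ifi27 (chromosome 12, 103392254 to 103407799), an interferon-stimulated gene of a family of small hydrophobic proteins, was at 39.9, 34.4 and 118.6 CPM in HSALR, against 18.0, 25.4 and 27.9 CPM in WT. All HSALR libraries lay above WT, and HSALR replicate 3 stood far above the other HSALR libraries. On the log2 scale the difference was 1.44 ± 0.51 (95% interval 0.21 to 2.67), the unadjusted p was 0.0283 and the edgeR adjusted p was 0.113. Without HSALR replicate 3 the log2 fold change was 0.64 (edgeR adjusted p = 0.116), and it was 1.70 without replicate 1 and 1.73 without replicate 2. In TPM, Ifi27 was at 14.2, 29.8 and 90.0 in HSALR, against 16.8, 25.4 and 22.6 in WT, and the groups overlapped (two-sided exact permutation p = 0.6).

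The same library was highest for the related gene Ifi27l2a, chosen after its values were seen, which overlaps Ifi27 on the opposite strand (103399975 to 103409950). It was at 8.47, 12.4 and 139.3 CPM in HSALR, against 2.69, 15.6 and 33.8 CPM in WT, and differed by 1.63 ± 1.52 on the log2 scale (edgeR adjusted p = 0.511). With an unknown strand setting in counting, reads of one gene may stand under the other. The 5 adipocyte markers Adipoq, Plin1, Cfd, Lep and Cidec were above 0 in every library, and summed to 24.9, 100.7 and 801.3 CPM in HSALR, against 6.65, 83.7 and 244.8 CPM in WT. HSALR replicate 3 was again the highest and WT replicate 1 the lowest. The part of adipose tissue in the level of Ifi27 was not tested. In whole muscle, more cells of a type and more RNA per cell cannot be told apart.

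**Figure D3:**
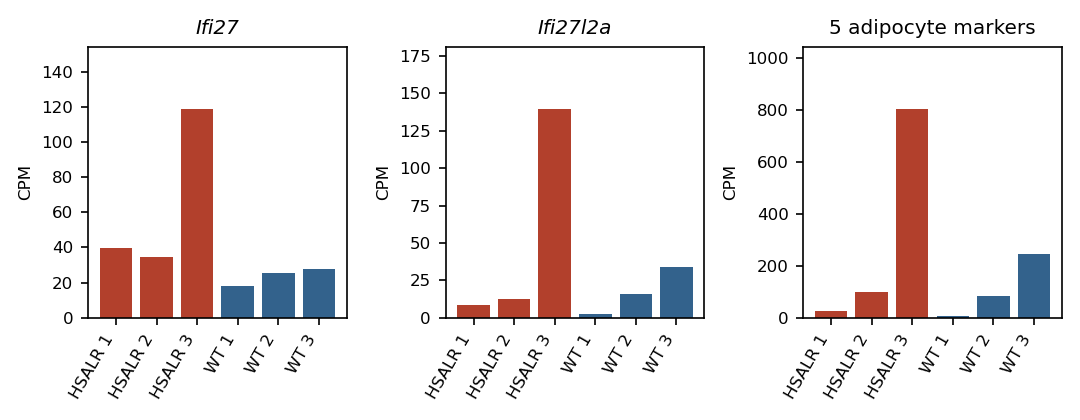
Ifi27, its overlapping relative Ifi27l2a and the sum of 5 adipocyte markers in each library (bars are single libraries in CPM; HSALR in red, WT in blue). HSALR replicate 3 is the highest in all panels, at 118.6, 139.3 and 801.3 CPM.

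Set side by side per length in TPM, the 9 genes had the same upper order in both groups. Ifi27 was the highest, at 44.7 ± 40.0 TPM in HSALR and 21.6 ± 4.38 TPM in WT (SD, n = 3 each). Mavs followed, and neither gene overlapped with the next one down in either group. Below Mavs no gene averaged over 1.03 TPM in HSALR or 1.41 TPM in WT, and each gene's range overlapped with that of its neighbours in the order. Isg15 and Dhx58 stood lowest in both groups. Isg15 was at 0.370 ± 0.161 TPM in HSALR and 0.103 ± 0.117 TPM in WT, and Dhx58 at 0.227 ± 0.159 TPM in HSALR and 0.153 ± 0.121 TPM in WT. The 3 sensor genes were thus below 2 TPM in every library, while the adaptor gene was above 2 TPM in every library.

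The tables also give each gene's transcript length weighted by the abundance of its isoforms, which moves when the mixture of isoforms moves. For Adar it was 4188, 3292 and 2206 bases in HSALR, against 3662, 3540 and 4681 bases in WT. The values overlapped (two-sided exact permutation p = 0.4), and the HSALR libraries alone spanned nearly the whole range. Ifih1 was at 2905, 4375 and 4470 bases in HSALR, against 2695, 3250 and 2057 bases in WT (p = 0.2 in the same exact test). The length enters the TPM of a gene as a divisor. Mavs, with more reads, was steady at 2920 to 2949 bases in HSALR and 2932 to 2960 bases in WT. The smallest exact permutation p over all 9 genes was 0.2 for length.

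Around these genes, 154 genes of 9 lists were followed, of which 121 were tested. Of these, 3 were called higher and 4 lower, against 11.8% of all genes tested called in either direction. These counts moved with the libraries used, as did those of all genes. They were 19 higher and 10 lower without HSALR replicate 2 (1479 and 1815 of all genes), 4 and 6 without HSALR replicate 1 (826 and 1177), and 1 and 1 without HSALR replicate 3 or any 1 of the WT libraries (42 to 50 and 124 to 168). The median log2 fold change over the 121 was 0.27, beside 0.04 over all genes.

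None of the 12 other nucleic acid sensors tested was called, although all 12 had a positive log2 fold change (median 0.76). Their CPM summed to 78.4, 41.5 and 45.5 in HSALR, against 33.9, 36.6 and 35.5 in WT, highest in HSALR replicate 1. The lowest p-value was that of Tlr7, an endosomal receptor of single-stranded RNA (log2 fold change 1.40 ± 0.45, edgeR adjusted p = 0.072). Tlr7 was called as higher in 5 of 20 other settings, but its change was 0.85 without HSALR replicate 1 and 0.53 (edgeR adjusted p = 0.55) with the share of 7SL and 7SK RNA as a covariate. The median of the 12 was 0.48 with 11 positive without HSALR replicate 1, and 0.21 with 9 positive with that covariate. On log2(TPM + 0.1) it was 0.03, which is 0.49 above the median of all genes.

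The interferon genes themselves were not seen. The 9 interferon genes in the list (Ifnb1, Ifna1, Ifna2, Ifna4, Ifnk, Ifne, Ifng, Ifnl2 and Ifnl3) had 0 counts in every library, which allows up to 0.285 CPM per library in HSALR and 0.223 CPM in WT. Of the receptor genes, Ifnar2 (0.92 ± 0.29, edgeR adjusted p = 0.0661) and Ifnar1 (0.56 ± 0.22, edgeR adjusted p = 0.111), which encode the chains of the type I interferon receptor, had positive changes without a call. Ifnar2 was called higher in 3 of 20 other settings and Ifnar1 in 1. With the 7SL and 7SK covariate the changes were 0.35 for Ifnar2 and 0.11 for Ifnar1, and without HSALR replicate 1 that of Ifnar1 was 0.36. Ifnar1 was at 23.9, 12.8 and 18.9 CPM in HSALR, against 11.9, 13.6 and 12.0 CPM in WT, and its groups overlapped.

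Genes that interferon induces summed to 480.9, 300.3 and 493.3 CPM in HSALR, against 283.9, 298.6 and 332.1 CPM in WT. Ifi27l2a, described above, weighed heavily in 1 library. It had 2074 of the 7346 counts in HSALR replicate 3, against 89 of 5055 and 154 of 3722 in HSALR replicates 1 and 2. In WT it had 38 of 4014, 235 of 4509 and 455 of 4467 counts. Of 52 such effectors 39 were tested, 1 was called higher and 0 lower, beside 4.28% and 7.48% of all genes. Tor3a, an endoplasmic reticulum ATPase gene, rose to 8.85, 8.23 and 12.0 CPM in HSALR, against 4.60, 5.10 and 4.16 CPM in WT (log2 fold change 1.07 ± 0.21, edgeR adjusted p = 0.0187). It lost the call in 6 of 20 other settings: both on TPM, and without HSALR replicate 3 (adjusted p = 0.0747) or WT replicate 1, 2 or 3 (edgeR adjusted p = 0.101, 0.0741 and 0.0917). Of the 39, 34 had positive changes with a median of 0.46. This fell to 29 and a median of 0.24 without HSALR replicate 1, and to 20 and 0.01 with the share of 7SL and 7SK RNA as a covariate. On log2(TPM + 0.1) their median was -0.10, which is 0.37 above the median of all genes, beside 0.42 for the counts. Some classical members of the list, chosen after their values were seen, were near the limit of detection. Ifit1 had 2, 2 and 3 counts in HSALR and 3, 6 and 8 in WT. Mx1 had 6, 2 and 0 in HSALR and 5, 0 and 0 in WT, and Cxcl10 had 0 in HSALR and 0, 2 and 0 in WT.

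Signalling genes were more abundant, and calls went in both directions. Irf5, a transcription factor of innate immune cells, rose to 15.03, 15.97 and 13.7 CPM in HSALR, against 4.17, 3.64 and 3.05 CPM in WT. Its log2 fold change of 2.04 ± 0.19 (edgeR adjusted p = 0.00212) was the only one of these 7 calls that held in all 20 other settings, where it ranged from 0.99 to 2.16. Traf6, a ubiquitin ligase downstream of several innate receptors, fell to 11.1, 9.36 and 10.9 CPM in HSALR, against 17.7, 16.6 and 15.2 CPM in WT (-0.66 ± 0.15, edgeR adjusted p = 0.0273). These were the 2 calls among 23 adaptors, kinases and ubiquitin ligases tested, beside 11.8% of all genes tested called in either direction.

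Jak1, the kinase shared by the interferon receptors, fell to 99.8, 98.3 and 92.0 CPM in HSALR, against 148.9, 139.8 and 138.8 CPM in WT (-0.56 ± 0.12 on the log2 scale, edgeR adjusted p = 0.0247). Jak1 was the only call among 10 JAK-STAT genes, beside 11.8% of all genes tested called in either direction. Socs3, a feedback inhibitor of cytokine signalling, rose to 7.13, 10.2 and 5.98 CPM in HSALR, against 3.04, 2.32 and 3.42 CPM in WT (1.40 ± 0.27, edgeR adjusted p = 0.0167), the only call among 10 negative regulators tested. Without HSALR replicate 3 or any 1 of the WT libraries, Traf6, Jak1 and Socs3 each lost the call, while their log2 fold changes were then -0.71 to -0.60 for Traf6, -0.58 to -0.52 for Jak1 and 1.25 to 1.56 for Socs3. All of them also lost it on both TPM scales, and Traf6 and Jak1 with the replicate block. Other losses were those of Traf6 with the effective length offset and of Jak1 with the length trend removed.

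None of the 4 genes for ISG15 conjugation and removal was called. On the log2 scale, the E2 enzyme gene Ube2l6 differed by 0.77 ± 0.56 (edgeR adjusted p = 0.371), which turned to -0.12 without HSALR replicate 1 and to -0.64 with the share of 7SL and 7SK RNA as a covariate. The ligase gene Herc6 differed by -0.22 ± 0.36 (edgeR adjusted p = 0.708). Among the partners that bind double-stranded RNA, Strbp, which encodes a protein of spermatid and other cells with double-stranded RNA-binding domains, fell to 15.98, 18.9 and 13.97 CPM in HSALR, against 38.6, 32.5 and 36.9 CPM in WT. Its log2 fold change was -1.15 ± 0.15 (edgeR adjusted p = 0.00527), and it lost the call in 3 of 20 other settings, both on TPM and with the effective length offset. Among the eIF2-alpha kinases to which PKR belongs, Eif2ak1, the haem-regulated kinase, fell to 15.8, 17.5 and 16.8 CPM in HSALR, against 26.6, 22.3 and 24.5 CPM in WT (-0.55 ± 0.13, edgeR adjusted p = 0.0306). Eif2ak1 lost the call in 10 of 20 other settings, among them both TPM scales, the 7SL and 7SK covariate, the replicate block and the 4 fits without HSALR replicate 3 or a WT library.

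**Figure D4:**
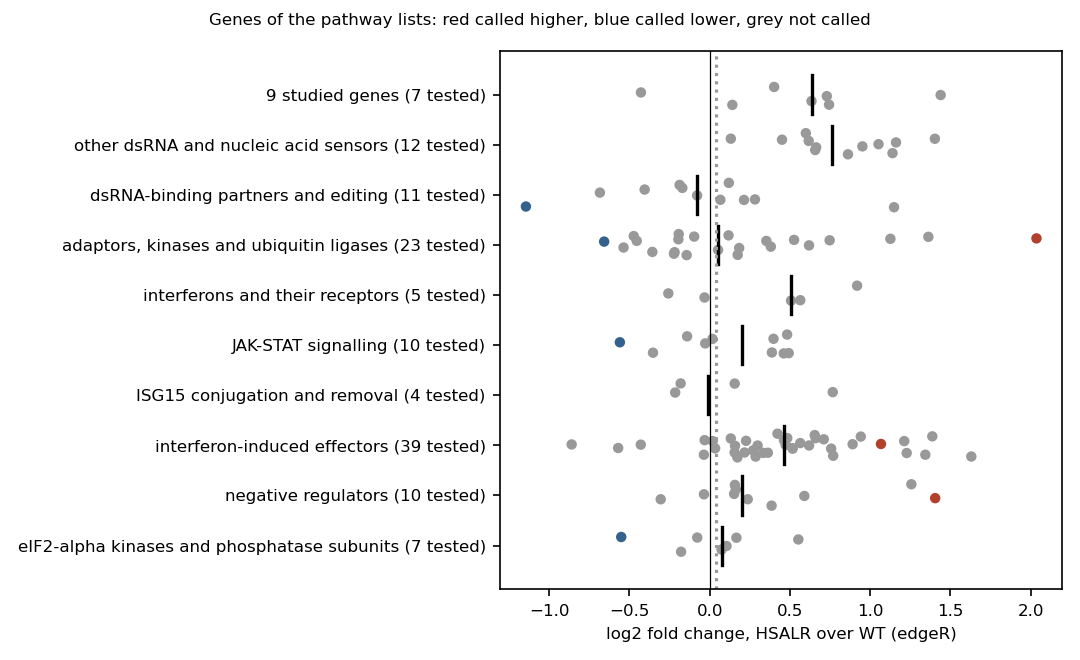
Log2 fold changes (HSALR over WT, edgeR) of the tested genes of each list, 1 point per gene, with red called higher, blue called lower and grey not called. Black bars are list medians and the dotted line is the median of all tested genes (0.04). The 7 tested of the 9 genes, the other sensors and the effectors lie mostly to the right of 0 without calls, Tor3a apart.

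In CPM, sums of macrophage, leukocyte and fibroblast markers lay above WT in every HSALR library. Sums of red blood cell and endothelial markers overlapped between groups. Of 13 macrophage and monocyte markers, all above 0 in every library, 11 were tested, 5 were called higher (among them Adgre1, Cd68 and Csf1r) and 0 lower, beside 4.28% and 7.48% of all genes. They summed to 702.2, 231.2 and 327.1 CPM in HSALR, against 160.2, 181.9 and 167.8 CPM in WT. HSALR replicate 1 was the highest, as it was for the sums of the nucleic acid sensors and of the fibroblast, red blood cell and endothelial markers. Fibroblast markers summed to 5029, 1618 and 2226 CPM in HSALR and 1286 to 1416 CPM in WT (8 of 8 positive, 1 called), red blood cell markers to 2046, 389.4 and 924.2 CPM in HSALR and 355.4 to 600.9 CPM in WT (0 of 5 called), and endothelial markers to 245.8, 154.1 and 170.3 CPM in HSALR and 158.6 to 178.8 CPM in WT (1 of 8 called). For Irf5 the HSALR libraries lay close together, with replicate 2 the highest. In TPM the macrophage sums were 75.2 to 123.4 in HSALR and 62.2 to 74.4 in WT. Of 14 leukocyte, lymphocyte and dendritic cell markers, 6 were above 0 in every library and only Ptprc, the pan-leukocyte marker, was tested and was called higher. Together they summed to 15.98, 8.23 and 10.9 CPM in HSALR and 4.98 to 6.82 CPM in WT. Neutrophil markers reached 17 counts in sum at most. The part of these cells in the levels of the sensors and of Irf5 was not tested.

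Genes with the response element in the promoter were called about as often as others. Of 423 tested protein coding genes with a match in the window, 17 were called higher and 30 lower (4.02% and 7.09%), beside 4.20% and 7.91% of all 12281 tested protein coding genes with a window. Their median log2 fold change was 0.11, beside 0.04. Of the 6 studied genes with a match, 4 were tested and 0 called.

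The genes most like Adar in their profile over the 6 libraries were found by the root mean squared difference of centred log2(CPM + 0.5). They were Emilin3 (0.0215), Aig1 (0.0532), Mppe1 (0.062), Hcls1 (0.0635) and Commd5 (0.0726), with log2 fold changes of 0.63 to 1.08. Because they were chosen by their values in these same libraries, changes like that of Adar were built in. Emilin3 had only 7 to 17 counts. None of the 5 was called (edgeR adjusted p = 0.0511 to 0.136).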

How the data were processed

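Total RNA was isolated with TRIzol from 3 HSALR and 3 WT quadriceps and made into stranded TruSeq libraries after RiboZero depletion. Per the submitters' processing notes, GRCm39, Bowtie2 and RSEM 1.3.1 were used. The annotation release was not given in the sources used here. The deposited expected counts are RSEM estimates by the authors, with ambiguous reads split between genes by abundance. The deposited TPM and FPKM values were scaled by the authors for effective length and library total (FPKM was not used), and the deposited lengths are weighted by isoform abundance.

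Symbols came from GENCODE M39, which matched 98.99% of the 53947 gene IDs. Expected counts were rounded and fitted with edgeR 4.0.16 (R 4.3.3) by quasi-likelihood with filterByExpr (minimum count 10), TMM scaling and group as the only term, over all 13576 genes that passed, with Benjamini-Hochberg adjustment. A gene was called at an adjusted p below 0.05, and the SE is the absolute log2 fold change over the root of F. The sources used here state no test for these libraries. TPM was tested as log2(TPM + 0.1) by exact permutation over libraries. Alternatives were DESeq2 1.42.0, limma 3.58.1, other scalings, filters, covariates and libraries left out, 20 in all. Fits were tested on simulated data. Every 2 libraries differed by more than counting noise. Intervals and floors of 3 counts cover counting error or these libraries only, since reads carry no molecular identifiers.

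The members and the lists were chosen with earlier results of these data known. Besides the 9 members, each list's called genes were named, up to the 4 with the lowest p, or the 2 with the lowest p where none was called, and the 5 genes nearest to Adar in profile. Some genes that this rule names are not reported here.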

Additional observations from a re-analysis of the deposited data

How the results depend on the processing

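None of the 9 genes was called in any of the 20 alternatives, although some signs changed. Of these, only the fit without a filter tested Dhx58 and Isg15. On log2(TPM + 0.1), where all tested genes had a median of -0.46, Eif2ak2 was at -0.043 and Ifih1 and Rigi both at -0.43. On log2(TPM + 1), with a median of -0.28, they were at -0.030, -0.21 and -0.26. All 3 lay above the median of their scale. With the share of 7SL and 7SK RNA as a covariate Eif2ak2 was at -0.0025, Rigi at -0.076 and Ube2l6 at -0.64. With 1 library left out, Eif2ak2 ranged from -0.033 to 0.40 and Ube2l6 from -0.12 to 1.10. The share was higher in every HSALR library than in every WT library, so the fit with this covariate cannot separate it from group. The cause of the changes with the covariate and between libraries was not tested.

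Of the 154 pathway genes, 3 were called higher and 4 lower. The higher count was 11 with DESeq2, 5 on log2(TPM + 1), 7 with upper-quartile scaling, 8 without a filter, 5 with a stricter filter, 6 with the effective length offset and 6 with protein coding genes only. The lower count was 0 on log2(TPM + 0.1), 1 on log2(TPM + 1), 1 with the effective length offset and 2 with the length trend removed. Leaving out 1 library gave 1 to 19 higher and 1 to 10 lower.

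Of all genes, 581 were called higher and 1016 lower with edgeR. DESeq2 called 991 higher. The counts were 50 higher and 469 lower on log2(TPM + 0.1), 78 higher on log2(TPM + 1), 260 and 445 with the effective length offset, 324 higher with the length trend removed, and 362 and 573 with the 7SL and 7SK covariate. Upper-quartile scaling moved the split to 728 higher and 781 lower. Leaving out 1 library gave 42 to 1479 higher and 124 to 1815 lower, with both highest counts without HSALR replicate 2 and both lowest without WT replicate 1.

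The deviations of same-numbered libraries from their group means correlated at -0.02, -0.11 and 0.26. The labels do not say whether the numbers pair samples, and 3 libraries per group are too few for these correlations to decide it. With the replicate block 0 of the 7 studied genes tested were called. Pathway calls were then 3 higher and 2 lower, and those of all genes 254 higher and 545 lower. Only libraries 3 correlated best with their own number.

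Depth limits Dhx58, Isg15 and Irf7, which had at most 25 counts in any library.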
